A study of Mus musculus with 8 samples.

Results

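Cholesterol synthesis and its control by SREBP2 were followed as a set of 28 genes in whole mouse liver, 20 enzymes of the pathway, 4 genes of the SREBP2 sensor and 4 sterol-responsive genes that act outside synthesis. The genes were chosen by name, with earlier results of these data known, so their shares against all genes are a description, and all 28 were found among the 28811 genes with at least 1 count in any library. RNA came from livers of adult male mice of 2 genotypes, 4 control libraries with the genotype WT and 4 HSC-PCK1-KO libraries, whose stellate cells lack Pck1 by the labels. Every mouse of both groups had eaten CDHFD, a high-fat diet without enough choline that is used to bring about fatty and scarred livers, for 8 weeks. There is no group on another diet, and all samples are labelled batch1. No source used here gives the Cre driver or other means of the knockout, or an age more exact than adult. The knockout is in stellate cells, which are a minor share of liver cells, while the counts are those of the whole organ. The series' design text calls the 4 libraries of a group biological replicates. HSC-PCK1-KO libraries are also called knockout libraries below.

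The pathway joins acetyl-CoA units to mevalonate, builds isoprenoids from it, condenses these to squalene, closes squalene to lanosterol and trims lanosterol to cholesterol. The liver is a main site of this synthesis. SREBP2, encoded by Srebf2, is a transcription factor held in the endoplasmic reticulum membrane by its escort protein SCAP and the anchoring proteins INSIG1 and INSIG2. When membrane sterol runs low, SCAP carries SREBP2 to the Golgi, where proteases release the part that enters the nucleus and switches on the genes of synthesis, Insig1 and Srebf2 itself among them. SREBP2 binds sterol regulatory elements close to gene starts, usually beside a site of the factor NF-Y.

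Promoter sequences are shown for Hmgcs1, which holds the full sterol element-like match, and for Srebf2, which was to be shown whatever it held. Srebf2 holds only the short form. Msmo1 was added because it holds the short form of the match, and was chosen after the sequences were searched. Each is the 250 bases before the RefSeq gene start, 5′ to 3′ on the gene's strand, in build GRCm38.p6. Capitals mark the sterol element-like match, TCACNCCAC or its short form TCACNCCA, which lies within the longer one, and the NF-Y box CCAAT on either strand (ATTGG where it lies on the other).
Hmgcs1, chr13:119690101-119690350, plus strand: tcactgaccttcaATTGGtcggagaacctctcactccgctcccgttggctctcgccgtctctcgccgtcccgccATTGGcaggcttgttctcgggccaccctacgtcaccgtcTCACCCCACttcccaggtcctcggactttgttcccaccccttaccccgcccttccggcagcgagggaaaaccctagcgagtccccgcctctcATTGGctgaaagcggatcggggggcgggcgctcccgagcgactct
Srebf2, chr15:82147019-82147268, plus strand: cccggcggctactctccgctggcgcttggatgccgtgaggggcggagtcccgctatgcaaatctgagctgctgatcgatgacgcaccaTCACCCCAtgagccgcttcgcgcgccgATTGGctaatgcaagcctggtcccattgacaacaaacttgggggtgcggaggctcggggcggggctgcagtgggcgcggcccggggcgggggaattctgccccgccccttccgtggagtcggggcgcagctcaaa
Msmo1, chr8:64733579-64733828, minus strand: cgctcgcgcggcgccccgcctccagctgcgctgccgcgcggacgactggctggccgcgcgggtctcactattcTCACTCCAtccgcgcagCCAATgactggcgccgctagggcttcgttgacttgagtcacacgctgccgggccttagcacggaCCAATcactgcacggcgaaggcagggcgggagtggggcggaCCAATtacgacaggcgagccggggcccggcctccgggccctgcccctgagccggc

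The match lay 137 to 129 bases before the start in Hmgcs1, 162 to 155 bases before it in Srebf2 and 177 to 170 bases before it in Msmo1. Of the 28 genes, 24 had at least 1 promoter window in the RefSeq table. TCACNCCAC, on both strands, was in 1 of the 24 genes, Hmgcs1, or 4.17%, and in 1.33% of the 11121 genes of the table that passed the filter on low counts. The short form was in 3 of the 24 genes (12.5%), and in 4.13% of those 11121 genes. The NF-Y box was in 22 of the 24 genes (91.7%) and in 40.3% of those 11121 genes. The box GGGCGG, a site of the factor Sp1, was in 21 of the 24 (87.5%) and in 60.5% of those genes. Its end letters can overlap those of an NF-Y box. The last 3 motifs were chosen after the first had been searched, a match is a string of letters and not a measured binding site, and no test was made.

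Library totals ranged from 44695439 to 49477255 counts. Transcripts of the mitochondrial genome took 6.69% to 8.31% of the counts and the 10 most abundant genes 17.3% to 20.4%. Expression is given in CPM, a gene's counts scaled by the library's total and its TMM factor, and differences as log2 fold changes of HSC-PCK1-KO minus control. All 28 genes passed the filter on low counts, and the lowest count of any of them in any library was 351, so none was near the limit of depth. Pck1, the targeted gene, stood at 1002, 2012, 551 and 1028 CPM in control and 339, 795, 593 and 948 CPM in knockout libraries, with overlap (log2 fold change -0.78, 95% interval -1.80 to 0.24). Hepatocytes also express Pck1, and the whole-organ level is therefore no check of a knockout in stellate cells.

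Across the set, 25 of 28 genes were at a lower mean level in HSC-PCK1-KO than in control livers, and 3, Ggps1, Insig2 and Mylip, at a higher one, where 51.8% of all genes tested lay below 0. The median log2 fold change was -0.59, where that of all 15669 genes tested was -0.0055. By edgeR's quasi-likelihood test each of the 28 had an adjusted p of 0.9998, so none passed 0.05, and no gene of the whole table passed in either direction (0.0% lower, 0.0% higher). At an unadjusted p under 0.05 there were 21 lower and 1 higher of the 28, where 1.34% of all genes tested were lower and 1.02% higher at that level. The 21 stand for 75.0% of the set. DESeq2 and limma-voom also passed none of the 28, with 22 and 20 at an unadjusted p under 0.05. Of all 15669 genes, 366 by DESeq2 and 371 by limma-voom were at that level.

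In 8 of the 28 genes every HSC-PCK1-KO library lay below every control library, against 0.811% of all genes tested. In none did every HSC-PCK1-KO library lie above every control library, against 0.721% of all genes tested. The 8 were Pmvk, Idi1, Sqle, Lss, Cyp51, Sc5d, Dhcr7 and Rdh11. The gap was narrow in several, as in Pmvk, where the lowest control library had 42.2 CPM and the highest HSC-PCK1-KO library 42.1 CPM. The 95% interval of edgeR's log2 fold change excluded a 2-fold rise for all 28 genes, a 1.5-fold rise for 27 of them, and a 2-fold fall for 13. Most of these genes are known SREBP2 targets and all were read from the same 8 libraries, so they do not count as independent observations of the genotype.

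**Figure D1:**
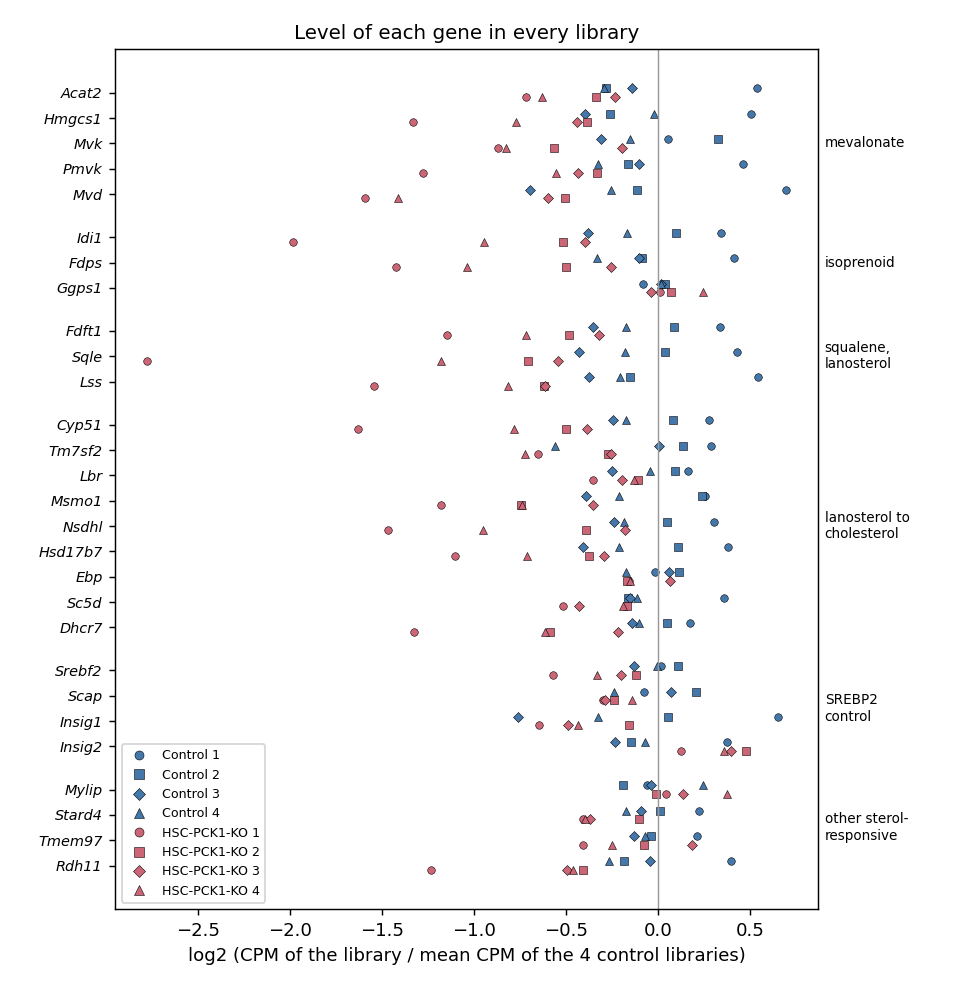
Level of the 28 genes in each of the 8 libraries, as log2 of the library's CPM over the mean CPM of the 4 control libraries (x axis), with genes in rows by role. Control 1 (blue circles) was the highest library for 21 genes and HSC-PCK1-KO 1 (red circles) the lowest for 22, while the other 6 libraries lay closer together.

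Compared per length of transcript, the levels spanned a wide range. In CPM per kilobase of exon, Sc5d led the control livers at 186.9, followed by Hmgcs1 at 152.9, Insig1 at 140.8, Ebp at 134.8 and Insig2 at 115.3. In the middle stood Tmem97 at 72.6, Fdps at 67.2, Cyp51 at 57.4, Fdft1 at 52.0, Nsdhl at 47.4 and Msmo1 at 44.67. The least abundant were Mylip at 2.92, Lbr at 2.57 and Ggps1 at 1.96. Hmgcs1, Insig1, Ebp and Insig2 overlapped across control libraries and cannot be ranked against each other. In HSC-PCK1-KO livers Sc5d at 150.0 and Insig2 at 146.5 led on the same scale, and Hmgcs1 stood at 95.03. The lengths are exon unions of GENCODE M21, which may not be the annotation the counts were made with.

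The 5 enzymes of the mevalonate steps had log2 fold changes from -0.95 to -0.46, with a median of -0.60, and all 5 had an unadjusted p under 0.05, as did 1.34% of all genes on the lower side. That count was 1 of 5 without control 1 or without HSC-PCK1-KO 4, and 3 of 5 without HSC-PCK1-KO 1. Over all genes, in either direction, it was 370 with all libraries and 248 to 502 without single libraries. Hmgcs1, which joins acetoacetyl-CoA with acetyl-CoA, stood at 997, 586, 535 and 693 CPM in control libraries 1 to 4 and at 279, 537, 518 and 412 CPM in knockout libraries 1 to 4. The groups overlapped by a single library, control 3, which lay just under HSC-PCK1-KO 2. Its log2 fold change was -0.69 (SE 0.25), with a 95% interval from -1.25 to -0.13. Of the 100-base transcript windows of Hmgcs1, 8.22% lie antisense to other transcripts.

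Mvk, the kinase that first phosphorylates mevalonate, stood at 31.2, 37.6, 24.2 and 27.0 CPM in the control libraries and at 16.4, 20.3, 26.2 and 17.0 CPM in the HSC-PCK1-KO libraries. HSC-PCK1-KO 3 reached into the control range, and the other 3 lay below it. Pmvk, the next kinase, had 73.0, 47.2, 49.2 and 42.2 CPM in control and 21.8, 42.1, 39.2 and 36.0 CPM in knockout libraries, without overlap.

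Mvd, which decarboxylates the product to isopentenyl pyrophosphate, stood at 68.7, 39.2, 26.2 and 35.6 CPM in control and 14.1, 29.8, 28.05 and 15.9 CPM in knockout libraries. Its groups overlapped at control 3, and its log2 fold change of -0.95 had a wide 95% interval, from -1.80 to -0.10, and was -0.61 without control 1. Acat2, the cytosolic thiolase that makes acetoacetyl-CoA, stood at 95.4 ± 29.1 CPM in control against 69.1 ± 10.99 CPM in knockout livers (SD, n = 4), its log2 fold change being -0.46, or -0.23 without control 1. Its level is uncertain, since 28.9% of its 100-base transcript windows are shared with its paralog Acat3 and 7.21% lie antisense to Tcp1.

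In the isoprenoid steps Idi1 and Fdps had negative log2 fold changes and Ggps1 a positive one, and none passed the adjusted threshold. The first 2 had an unadjusted p under 0.05 with all libraries, as did 1.34% of all genes on the lower side. Neither of the 2 had one without control 1 or without HSC-PCK1-KO 4. Idi1, which interconverts the isoprene units, stood at 80.1, 67.7, 48.6 and 56.3 CPM in control and 16.0, 44.2, 48.0 and 32.8 CPM in knockout libraries, with no overlap and a log2 fold change of -0.84. Fdps, which makes farnesyl pyrophosphate, stood at 282.7 ± 65.0 and 170.0 ± 59.4 CPM (SD, n = 4), HSC-PCK1-KO 3 lying above control 4, and its log2 fold change was -0.73. Both share windows with pseudogene-like transcripts, 15.8% of those of Idi1 and 21.4% of those of Fdps.

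Ggps1 makes geranylgeranyl pyrophosphate for the lipid anchors of proteins and so leads away from cholesterol. It stood between 8.75 and 9.50 CPM in the control libraries and between 9.0 and 10.98 CPM in the HSC-PCK1-KO libraries. Its log2 fold change was 0.076, with a 95% interval from -0.12 to 0.27. That interval overlapped the interval of Idi1, -1.61 to -0.072, and lay just above that of Fdps, -1.33 to -0.14. The difference between the 3 genes was not tested.

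The squalene and lanosterol steps had the lowest median of the 6 roles, at -0.85. Sqle, the epoxidase that is one of the pathway's slow steps, stood at 146, 111, 80.4 and 95.5 CPM in control libraries and 15.8, 66.4, 74.2 and 47.8 CPM in knockout libraries. No HSC-PCK1-KO library reached the control range, and HSC-PCK1-KO 1 lay far below the rest. Its log2 fold change of -1.08 (SE 0.45) was the farthest from 0 of the 28, with a 95% interval from -2.15 to -0.022, and it was -0.79 without HSC-PCK1-KO 1.

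Lss, which closes the ring to lanosterol, stood at 128, 79.0, 67.6 and 76.0 CPM in control and 30.1, 57.0, 57.3 and 49.8 CPM in knockout libraries, a log2 fold change of -0.85 (SE 0.26). The groups did not overlap, and each had 1 library standing off, control 1 high and HSC-PCK1-KO 1 low. Fdft1, squalene synthase and the first step committed to sterols, stood at 219.8 ± 46.5 CPM in control against 141.8 ± 33.2 CPM in knockout livers (SD, n = 4), with overlap between HSC-PCK1-KO 3 and control 3. Of its windows 16.0% lie antisense to Ctsb.

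From lanosterol to cholesterol all 9 genes were negative, around a median of -0.59. An unadjusted p under 0.05 was found in 7 of them, and in 1.34% of all genes on the lower side. The 7 became 3 without control 1, and 4 without control 2 or without HSC-PCK1-KO 4. Over all genes, in either direction, 370 at that level became 248 to 502 without single libraries. Msmo1, the sterol methyl oxidase, stood at 327, 324, 209 and 237 CPM in control and 121, 164, 215 and 165 CPM in knockout libraries. Its unadjusted p was the smallest of the 28, and its groups still overlapped, HSC-PCK1-KO 3 lying above control 3. Its log2 fold change was -0.72 (SE 0.20).

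Cyp51, the lanosterol demethylase, stood at 307, 269, 214 and 225 CPM in control and 81.9, 179, 194 and 147 CPM in knockout libraries, without overlap, a log2 fold change of -0.75. Nsdhl and Hsd17b7, which work with Msmo1 in removing methyl groups, had log2 fold changes of -0.66 and -0.59. Dhcr7, the reductase of a last step, stood at 185, 170, 149 and 153 CPM in control and 65.6, 109, 141 and 108 CPM in knockout libraries, without overlap, a log2 fold change of -0.63.

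The remaining genes of these steps differed less. Sc5d, a desaturase, had 909.7 ± 172.8 CPM in control against 730.0 ± 86.6 CPM in knockout livers (SD, n = 4), its log2 fold change being -0.32, or -0.17 without control 1. Tm7sf2 and Lbr both encode a sterol reductase for the same step, and LBR is also a protein of the inner nuclear membrane. Tm7sf2 had a log2 fold change of -0.46 and Lbr of -0.19. Of the windows of Tm7sf2 7.92% are shared with Vps51, and 6.94% of those of Lbr lie antisense to Dnah14. Ebp, an isomerase, stood at 311.4 ± 26.3 and 290.4 ± 23.4 CPM (SD, n = 4), its log2 fold change being -0.10 (95% interval -0.30 to 0.10).

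**Figure D2:**
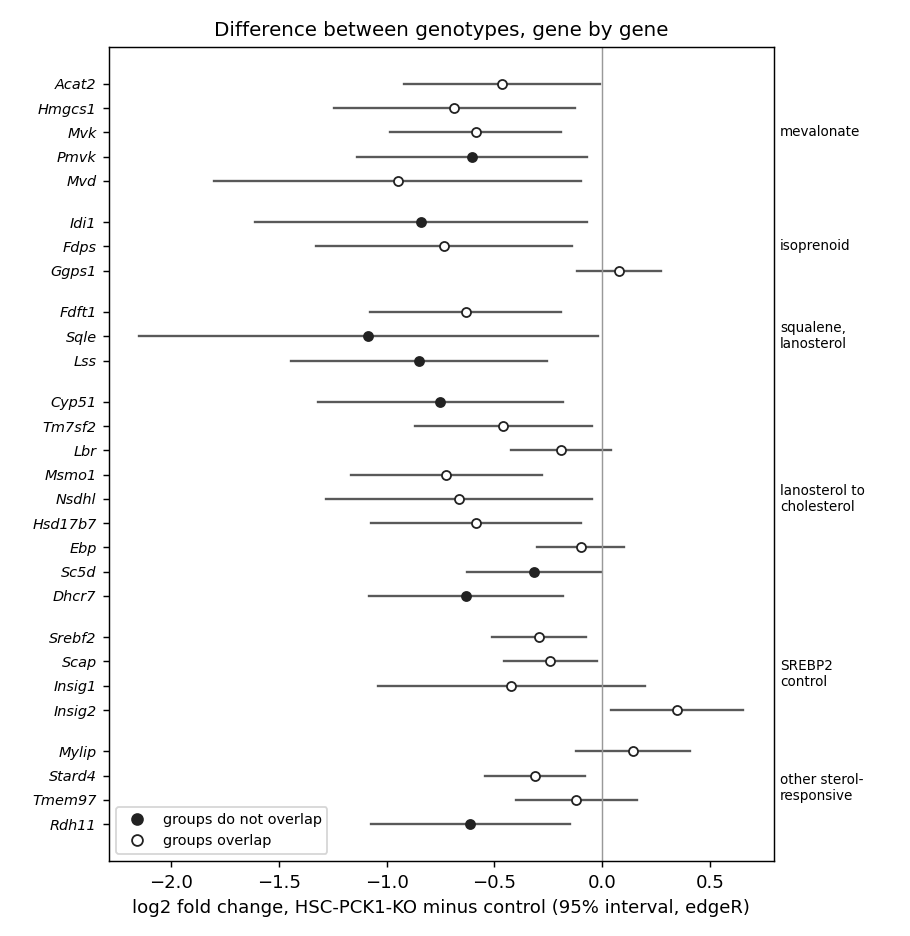
Log2 fold change of HSC-PCK1-KO minus control for each of the 28 genes with its 95% interval from edgeR (x axis), in rows by role. Filled points mark the 8 genes whose groups do not overlap, and Ggps1, Insig2 and Mylip lie to the right of 0.

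The sensor genes were mixed, 3 with a negative and 1 with a positive log2 fold change. Srebf2 stood at 75.0, 80.0, 68.0 and 73.9 CPM in control and 50.1, 68.2, 64.7 and 59.0 CPM in knockout libraries. Only HSC-PCK1-KO 2 reached the control range, just above control 3. The log2 fold change of Srebf2 was -0.29 (SE 0.098), with a 95% interval from -0.51 to -0.076. Scap stood at 126, 153, 139 and 112 CPM in control and 107, 112, 108 and 120 CPM in knockout libraries, a log2 fold change of -0.24. Control 4 lay among the HSC-PCK1-KO libraries, and 6.59% of the windows of Scap lie antisense to another transcript.

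The INSIG pair stood on opposite sides of 0. Insig1, which SREBP2 itself induces, stood at 685, 452, 257 and 348 CPM in control and 278, 391, 310 and 322 CPM in knockout libraries. The control libraries spread so widely that control 3 was the lowest of the 8. Its log2 fold change of -0.42 had a 95% interval from -1.04 to 0.20 and was -0.12 without control 1.

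Insig2, whose liver transcript is known to be lowered by insulin and which is not switched on by SREBP2 in the same way, stood at 518, 361, 340 and 381 CPM in control and 437, 557, 528 and 513 CPM in knockout libraries. Replicate 1 of each group stood apart from its group, control 1 high and HSC-PCK1-KO 1 low. Insig2 was the 1 gene of the set at an unadjusted p under 0.05 on the higher side, its log2 fold change being 0.35 (SE 0.14, 95% interval 0.039 to 0.65). With replicate 1 of both groups left out, an alternative chosen after the data were seen, it was 0.57, and it passed no adjusted threshold there either (edgeR's adjusted p = 0.9995). Leaving out any of the other 6 libraries singly gave 0.28 to 0.34 with an unadjusted p of 0.057 to 0.090, so the unadjusted p under 0.05 was lost in each of those 6 fits.

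**Figure D3:**
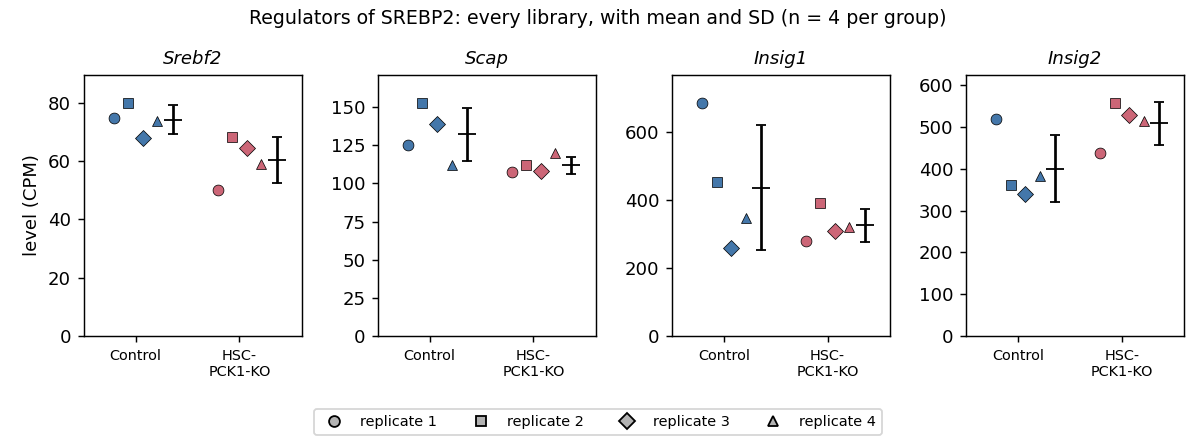
CPM of Srebf2, Scap, Insig1 and Insig2 (y axes from 0) in each library by genotype, with symbols for the replicate number and bars for the mean and SD of 4 libraries. Srebf2 and Scap means were lower and the Insig2 mean higher in HSC-PCK1-KO livers, and every pair of groups overlaps in at least 1 library.

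Of the genes outside synthesis, Rdh11 came closest to the enzymes. This retinal reductase stood at 136, 91.0, 100.4 and 86.0 CPM in control and 44.1, 77.8, 73.5 and 75.2 CPM in knockout libraries, without overlap, a log2 fold change of -0.61 (SE 0.20). Stard4, a carrier of cholesterol between membranes, stood at 134.0 ± 16.3 and 107.9 ± 11.3 CPM (SD, n = 4), a log2 fold change of -0.31.

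Tmem97, a sterol-responsive membrane protein also known as the sigma-2 receptor, stood at 99.8 ± 10.8 and 91.8 ± 16.4 CPM (SD, n = 4), a log2 fold change of -0.12, and 13.8% of its windows are shared with a pseudogene-like transcript. Mylip is induced by the oxysterol receptors LXR rather than by SREBP2 and marks lipoprotein receptors for degradation. It stood at 9.44 ± 1.24 CPM in control against 10.4 ± 1.28 CPM in knockout livers (SD, n = 4), its log2 fold change being 0.14.

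The enzymes differed in how far they ranged over the 8 libraries. The highest library had 9.23 times the level of the lowest for Sqle, 5.01 times for Idi1, 4.88 times for Mvd and 4.25 times for Lss. The same ratio was 1.255 for Ggps1, 1.22 for Ebp and 1.43 for Lbr. Within the control group alone it was 2.62 for Mvd and 1.82 for Sqle, and within the HSC-PCK1-KO group it was 4.69 for Sqle and 3.01 for Idi1. Sqle, Idi1, Mvd and Lss were also the 4 with the lowest log2 fold changes of the 28, both measures being taken from the same 8 values.

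A single library stood out in each group. HSC-PCK1-KO 1 also had the highest mitochondrial share, 8.31% against at most 7.402% elsewhere, and the lowest TMM factor, 0.942, and control 1 had the highest share in the 10 most abundant genes, 20.4%. The part of these library properties in the result was not tested. The 20 enzymes summed to 5132, 3908, 3441 and 3591 CPM in control libraries 1 to 4 and to 2059, 3106, 3195 and 2693 CPM in knockout libraries 1 to 4. The groups did not overlap in this sum, and HSC-PCK1-KO 3 and control 3 lay close to each other. HSC-PCK1-KO 1 was below the mean of the other 3 of its group in all 28 genes, and control 1 was above the mean of its other 3 in 24 of 28.

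With both of those libraries left out, an alternative chosen after the data were seen, 24 of 28 genes still had a negative log2 fold change and the median was -0.29. The genes at an unadjusted p under 0.05 were then 10 rather than 22, while over all genes they were 245 of 15737 rather than 370 of 15669. Tmem97 turned to 0.047. Among the 3 remaining libraries per group, 8 of 28 genes (28.6%) lay lower in every HSC-PCK1-KO library, where 2.90% of all genes tested did. These were the same 8 as with all libraries, since a gene without overlap stays without it when libraries are left out. The count could therefore not fall below 8, and over all genes the share had been 0.811% with all libraries. Lss was at -0.43, Sqle at -0.60, Cyp51 at -0.44 and Dhcr7 at -0.39. Leaving out single libraries gave 11 to 19 of the 28 at that level, the fewest without control 1 or HSC-PCK1-KO 4, at 11 each, and 14 without control 2. Over all genes tested those 3 fits had 365, 492 and 402 genes at that level, and the single leave-outs ranged from 248 without HSC-PCK1-KO 1 to 502 without HSC-PCK1-KO 3.

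**Figure D4:**
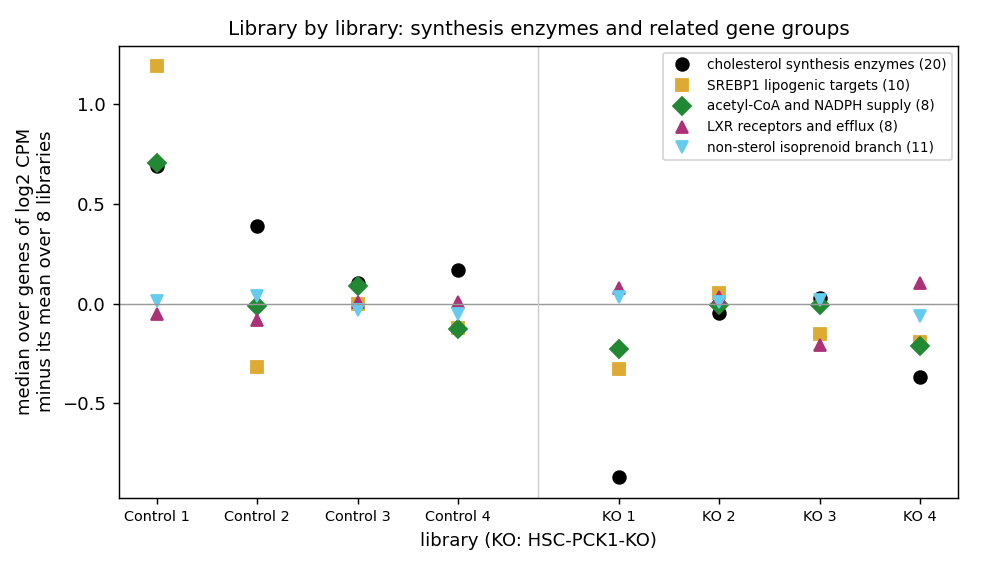
Median over the genes of a group of log2 CPM minus its mean over the 8 libraries (y axis), for each library (x axis), in the 20 synthesis enzymes and 4 related groups. The enzymes run from 0.69 in control 1 to -0.87 in HSC-PCK1-KO 1. The SREBP1 lipogenic targets stand at 1.19 in control 1 and from -0.33 to 0.051 elsewhere. The acetyl-CoA and NADPH genes stand at 0.71 in control 1 and from -0.23 to 0.087 elsewhere. The LXR and non-sterol groups stay between -0.21 and 0.10.

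Genes next to the pathway were read from 7 lists. In edgeR none of their genes passed at an adjusted p of 0.05. Of 9 genes that process SREBP or degrade its partners, 6 were negative around a median of -0.034, none at an unadjusted p under 0.05. Erlin1, of a complex that degrades sterol-sensing proteins, was at -0.12, and Rnf139, a ubiquitin ligase of that route, at 0.098. Srebf1, which encodes the related factor of fatty acid synthesis, was at -0.16, a gene picked with its values in view.

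LXR receptors and their cholesterol efflux targets were negative in 3 of 8, with a median of 0.051. Abca1, which exports cholesterol to lipoproteins, stood at 168.4 ± 10.52 CPM in control against 151.9 ± 14.4 CPM in knockout livers (SD, n = 4), and Nr1h3, which encodes LXR alpha, at 90.9 ± 11.2 and 102.8 ± 12.3 CPM. Genes of esterification, uptake and transport were negative in 6 of 14 tested, with a median of 0.0063, Lrp1, a lipoprotein receptor, and Osbp, a sterol carrier, being at -0.15 and -0.13. Genes that spend isoprenoids on ubiquinone, dolichol and protein prenylation were negative in 3 of 11, with a median of 0.030, Pdss1 being at -0.21 and Pggt1b at 0.11. For all genes tested in these 4 lists the 95% interval excluded a 2-fold fall.

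Genes that supply acetyl-CoA and NADPH were negative in 7 of 8, around a median of -0.33. On the lower side 3 had an unadjusted p under 0.05, as did 1.34% of all genes. The 3 were Acss2 and Acly, which make cytosolic acetyl-CoA, and G6pdx, which makes NADPH. Acss2 stood at 463, 279, 363 and 219 CPM in control and 156, 230, 252 and 200 CPM in knockout libraries, with overlap. Acly, picked with its values in view, was at -0.62 and G6pdx at -0.42. The list's median of log2 CPM minus its mean over all libraries was 0.71 in control 1. It was -0.13 to 0.087 in the other controls and -0.23 to -0.0057 in the knockout libraries.

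SREBP1 lipogenic targets were negative in 10 of 10, around a median of -0.39, with none at an unadjusted p under 0.05. Their summed level was 27794 CPM in control 1 and 5370 to 11866 CPM in the other control libraries, against 6941 to 15224 CPM in the HSC-PCK1-KO libraries. Most of the sum in control 1 was Scd1, the stearoyl-CoA desaturase, at 21115 CPM. Pnpla3 had 9.74 CPM in control 1 and at most 2.16 CPM in any other library, and Acaca, acetyl-CoA carboxylase, had 133 CPM in control 1 and 65.2 to 80.2 CPM elsewhere. Enzymes of oxysterols and bile acids were negative in 5 of 7 tested, with a median of -0.24, Cyp7a1, which starts bile acid synthesis from cholesterol, at -0.70 with a 95% interval from -1.70 to 0.31, and Cyp8b1 at -0.30.

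In whole liver, fewer cells of a type and less RNA per cell cannot be told apart. Hepatocyte markers were negative in 7 of 8 with a median of -0.028, and summed to 77390 to 97618 CPM in control and 74611 to 92899 CPM in knockout libraries. Stellate cell markers were negative in 6 of 8, at 292.2 to 321.0 and 258.5 to 300.2 CPM in sum, the lowest being HSC-PCK1-KO 1. Ecm1 alone stood at 121.4 to 135.1 CPM in control and 104.6 to 123.8 CPM in knockout libraries. Only Rgs5 of these markers had an unadjusted p under 0.05 in edgeR, and it was higher, with a log2 fold change of 0.25. On the higher side 1.02% of all genes tested were at that level. Macrophage markers summed to 295.2 to 473.5 and 247.8 to 445.1 CPM, endothelial markers to 188.5 to 217.0 and 168.3 to 225.8 CPM, and cholangiocyte markers to 28.6 to 138.0 and 30.7 to 78.3 CPM.

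Lymphocyte and neutrophil markers summed to 2.55 to 7.37 CPM in control and 3.98 to 8.03 CPM in knockout libraries, and proliferation markers to 4.43 to 15.0 and 6.48 to 16.4 CPM. The 3 mesothelial markers Upk3b, Msln and Wt1 were all negative, and their sum, 3.11 to 8.52 CPM in control and 1.39 to 2.74 CPM in knockout libraries, did not overlap between the groups. It was lowest in HSC-PCK1-KO 1 and was 8.16 CPM in control 1, next to the highest, control 4. The part of mesothelial or stellate cells in the result on cholesterol synthesis was not tested. Of 5 adipose and pancreas markers 4 were under 0.1 CPM, Prss2 having no count in any library.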

How the data were processed

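Poly(A) RNA of 8 whole livers was sequenced by the authors as strand-specific paired-end libraries, per the labels' protocols. The deposited values are raw counts per gene, whole numbers with no normalization. The submitters' processing notes name build GRCm39 and R 4.3.2, with aligner, counter, annotation and strand setting not given in the sources used here. Symbols came from GENCODE M21, which named 52029 of 56953 identifiers.

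Genotypes were compared in R 4.3.3 with edgeR 4.0.16 (filterByExpr, TMM, robust quasi-likelihood F-test, Benjamini-Hochberg adjustment over 15669 genes, threshold 0.05), after testing on simulated data. The p-values set the genotype difference against the spread between these libraries, which was estimated in part from all genes together. Alternatives were RLE factors, other filters, DESeq2 1.42.0, limma-voom (limma 3.58.1), a replicate block, an adjusted p of 0.1 and leaving out libraries. Log2 CPM used a prior count of 2. Pairs within a group differed beyond counting noise (chi-square per degree of freedom 48.7 to 184.9). All 28 genes were named, and of each related list the 2 genes with the smallest p and a mean of at least 1 CPM. The genes and lists were chosen with earlier results of these data known. Promoters came from RefSeq, and gene models of the counted build were not used here.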

Additional observations from a re-analysis of the deposited data

Results flagged for a closer look

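In 5 of 56 groups of 4 libraries, 1 library lay far from the other 3 by Dixon's criterion, where chance gives 2.8. Acat2 had 138.6 CPM in control 1 against 77.9 to 86.5 CPM in the other controls. Sc5d had 1168 CPM in control 1 against 813.5 to 839.3 CPM. Rdh11 had 44.1 CPM in HSC-PCK1-KO 1 against 73.5 to 77.8 CPM in the others of its group. Ebp had 325.5 CPM in HSC-PCK1-KO 3 against 276.7 to 280.3 CPM, and Stard4 had 124.7 CPM in HSC-PCK1-KO 2 against 101.1 to 103.9 CPM.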

How the results depend on the processing

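None of the 28 genes passed an adjusted p of 0.05 or 0.1 under any alternative run, and none changed sign except Tmem97 with control 1 and HSC-PCK1-KO 1 both left out. There the median log2 fold change of the 28 was -0.29, and 1 gene of the whole table passed the threshold. At an unadjusted p under 0.05 were 10 of the 28, against 245 of 15737 genes. The median was -0.66 to -0.42 without single libraries and -0.59 to -0.52 under the other settings. The count at an unadjusted p under 0.05, 22 with all libraries, was 11 to 19 without single libraries and 15 with no filter. Over all genes it was 370 of 15669 with all libraries, 248 to 502 without single libraries and 686 of 28811 with no filter. DESeq2 passed 6 genes of the whole table, none of them among the 28, and leaving out single libraries passed 0 to 1. With the replicate number as a block the count was 9 of the 28, against 311 of 15669 genes, Insig2 not among the 9. The numbers share no stated origin, and deviations of same-numbered libraries correlated from -0.33 to 0.058, none of the 4 control libraries matching its own number best. The lowest count of any of the 28 in a library was 351.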

Other observations

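The ratio of Insig2 to Insig1, chosen after the values were seen and not tested, was 0.757, 0.80, 1.32 and 1.10 in control libraries 1 to 4 and 1.57, 1.42, 1.70 and 1.6 in HSC-PCK1-KO libraries 1 to 4, all from CPM. It was 0.994 ± 0.27 in control and 1.57 ± 0.12 in HSC-PCK1-KO livers (SD, n = 4), and the groups did not overlap. A ratio within a library does not depend on the scaling factors. It does not show which of the 2 genes differed.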
